A study of Mus musculus with 4 samples.

Results

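Genes of platelets and of megakaryocytes, the bone marrow cells that shed platelets, were examined in granulocyte cultures of mice that lack miR-223. The genes are Pf4, Ppbp, Gp9, Gp5, Gp1bb, Treml1, Selp and Vwf, taken by the gene name that the array files give each probe. These 8 genes, of 28512 genes on the array, are read by 11 probes, 3 of them for Vwf and 2 for Selp. Marrow cells of male C57BL/6 mice, either miR-223 KO or wild type, spent 4 days in GM-CSF (40 ng/ml), which drives granulocyte and macrophage growth, before the expanding immature granulocytes were taken by sorting. Their Cy3-labelled RNA was read on single-colour Agilent mouse arrays, 2 for miR-223 KO and 2 for wild type, all 4 on 1 slide. The 2 groups shared strain, sex, culture and sort, and differed by genotype alone in the labels, which do not describe the deleted allele or say whether replicates came from separate mice. P-values therefore measure the spread between these samples, which may be technical. In a sorted bulk sample, fewer cells of a type and less RNA per cell cannot be told apart.

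Platelets are made by megakaryocytes, which share a progenitor with erythroid cells and load alpha granules with chemokines and adhesion proteins. Pf4 and Ppbp encode the chemokines of these granules. Vwf encodes von Willebrand factor, which tethers platelets to injured vessels, and Gp9, Gp5 and Gp1bb encode subunits of its platelet receptor, the GPIb-IX-V complex. Selp encodes P-selectin and Treml1 a receptor of the granule membrane, both of which reach the surface when platelets are activated. Granulocytes meet these products as partners: they carry the P-selectin ligand and the receptor for the neutrophil-attracting peptide that is cut from the Ppbp product.

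The microRNA that the knockout mice lack, and the upstream windows of 4 of the genes, are shown because they give the deleted regulator and the start regions of the genes whose values the results turn on. The sequences are those of RefSeq for build GRCm38.p6. The mature microRNA lies on the plus strand of chrX:96242884-96242905, and the capitals mark its seed, bases 2 to 8. A window of 250 bases before the transcript start was held for 7 of the 8 genes, all but Vwf. Capitals in the windows mark GATA letters (AGATAA, also AGATAG, and TGATAA, also TGATAG), ETS letters (AGGAAG, and also CGGAAG) and TATA letters (TATAAA), searched on both strands.
mmu-miR-223-3p: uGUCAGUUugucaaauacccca
Pf4, chr5:90772185-90772434, plus strand: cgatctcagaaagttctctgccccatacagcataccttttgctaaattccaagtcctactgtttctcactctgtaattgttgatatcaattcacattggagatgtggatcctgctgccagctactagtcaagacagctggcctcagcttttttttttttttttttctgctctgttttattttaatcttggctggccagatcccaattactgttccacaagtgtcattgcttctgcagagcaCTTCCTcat
Ppbp, chr5:90768268-90768517, plus strand: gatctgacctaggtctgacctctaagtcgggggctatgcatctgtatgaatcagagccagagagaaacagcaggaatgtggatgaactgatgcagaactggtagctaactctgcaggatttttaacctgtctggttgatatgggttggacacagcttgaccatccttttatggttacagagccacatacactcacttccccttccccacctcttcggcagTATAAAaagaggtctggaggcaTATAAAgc
Selp, chr1:164115014-164115263, plus strand: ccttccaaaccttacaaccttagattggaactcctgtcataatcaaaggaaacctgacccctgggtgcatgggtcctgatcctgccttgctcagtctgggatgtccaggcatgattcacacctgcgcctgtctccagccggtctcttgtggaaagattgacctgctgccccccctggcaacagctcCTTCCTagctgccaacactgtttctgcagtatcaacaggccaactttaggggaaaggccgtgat
Treml1, chr17:48359666-48359915, plus strand: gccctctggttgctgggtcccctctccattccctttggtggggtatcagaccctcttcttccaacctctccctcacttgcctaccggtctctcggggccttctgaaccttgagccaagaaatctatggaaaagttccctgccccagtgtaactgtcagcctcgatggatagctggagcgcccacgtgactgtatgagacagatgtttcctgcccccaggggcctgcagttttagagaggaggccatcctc

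In these windows, ETS letters occurred in 5 of the 7 genes (Pf4, Gp9, Gp5, Gp1bb and Selp), against 39.22% of 32841 windows of the same length over all annotated starts. GATA letters occurred in 2 of the 7 (Gp5 and Gp1bb), against 26.54% of all windows. Ppbp was the 1 gene with TATA letters, which 12.37% of all windows held. Treml1 had none of the 3. A match in this window describes its letters and says nothing of binding.

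The share of the 41174 probes that stood well above background ran from 57.6% on wild-type array 2 to 63.5% on wild-type array 1, and 0 spots were saturated. Levels are log2 intensities relative to the 75th percentile of the array, so that 0 is that percentile, and differences are miR-223 KO minus wild type with the standard error (SE) of limma's moderated fit over 16781 genes. Correlations of levels across genes ranged from 0.985 to 0.994 between arrays, and that of KO array 1 with wild-type array 1 (0.991) was above that between the wild-type arrays (0.990). Genes are not independent replicates in these values. The labelled cell type had its markers: all 14 tested granulocyte genes were well above background on every array, among them Mpo, the peroxidase of primary granules, at 8.51 and 8.16 in KO against 9.02 and 8.52 in wild type. The deletion itself could not be checked with the probes named here.

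Of the 8 platelet genes, 7 were measured and 5 of these were lower in the knockout, where 45.2% of all tested genes were lower. The 2 KO values were both under the 2 wild-type values for 4 genes, Pf4, Treml1, Selp and Vwf (20.1% of all tested genes), and above them for 1, Gp9 (28% of all tested genes). The groups overlapped for Ppbp and Gp1bb, as for 52% of all tested genes. The median log2 difference of the 7 genes was -0.58, against 0.03 over all 16781 genes. None of the 7 passed an adjusted p of 0.05 (limma, Benjamini-Hochberg over all genes). Of all tested genes 0% passed, and the smallest adjusted p was 0.0592. At an unadjusted p of 0.05, 3 of the 7 were lower (Treml1, Vwf and Selp) and 0 higher, against 5.52% lower and 8.03% higher of all tested genes. Every measured platelet gene was well above background on all 4 arrays. Gp5 was well above background on none and was not tested.

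**Figure D1:**
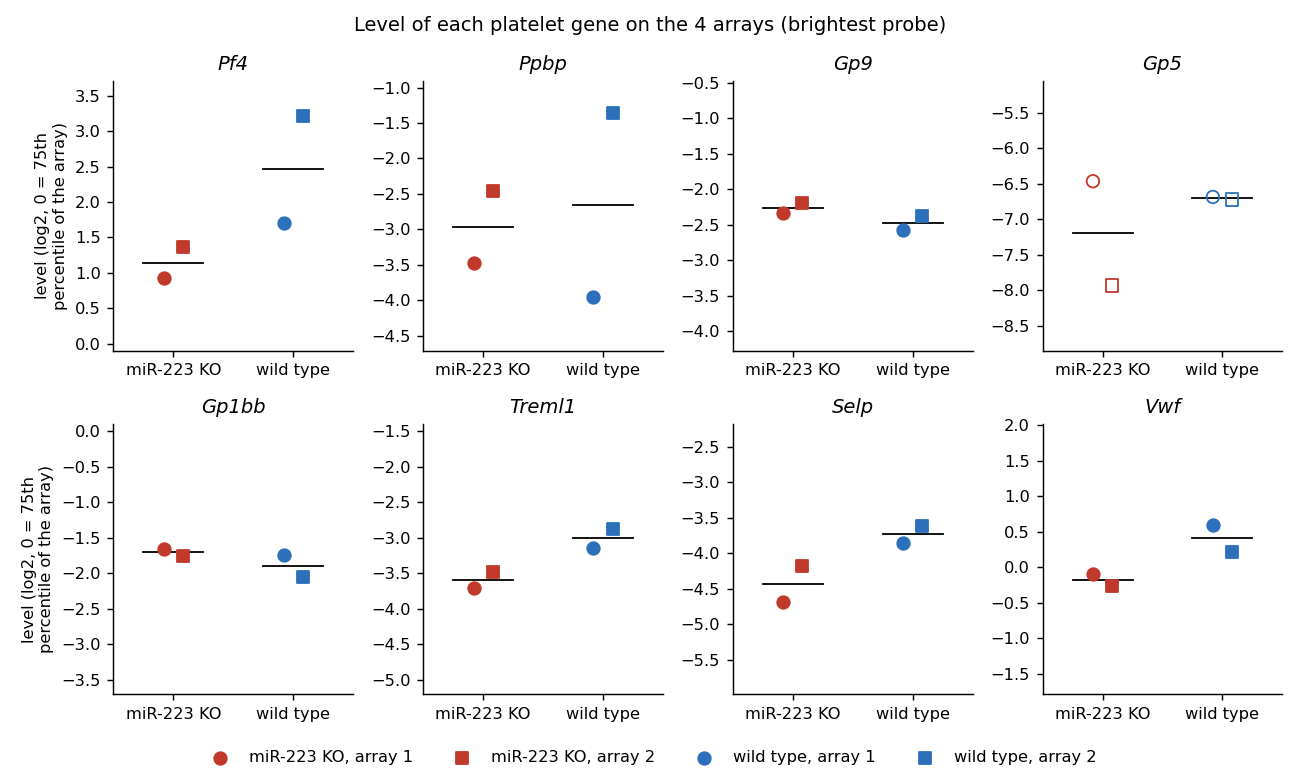
Level of the brightest probe of each gene on each array (log2, 0 is the 75th percentile of the array; each panel spans the same range), with filled symbols well above background, open symbols not, and a bar at the group mean of 2 arrays. The KO arrays lie below the wild-type arrays for Pf4, Treml1, Selp and Vwf, and the wild-type arrays stand far apart for Pf4 and Ppbp.

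Pf4, platelet factor 4, is a chemokine that binds heparin. Its probe lies on chromosome 5 (91202275 to 91202334, plus strand, build mm9 of the array files). Its level was 0.92 and 1.37 on the KO arrays, against 1.71 and 3.22 on the wild-type arrays. Both KO values were below both wild-type values, by 0.34 at the nearest, but the wild-type arrays differed from each other 2.84-fold. The log2 difference was -1.32 ± 0.54 (SE, n = 2 arrays per group), 2.49-fold lower in KO, with an adjusted p of 0.397 (limma). The size rested on wild-type array 2: without it the difference was -0.56 and without wild-type array 1 it was -2.07. On the scanner's intensity scale the KO arrays read 976 and 1275, against 1915 and 4520 in wild type.

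Ppbp, the precursor of several platelet chemokine peptides, is read from the same strand of chromosome 5 at 91198970 to 91199029 (mm9). Its level was -3.47 and -2.46 on the KO arrays, against -3.96 and -1.36 on the wild-type arrays. The KO values lay between the wild-type values, which differed 6.06-fold from each other. The log2 difference of -0.31 ± 0.95 (SE, n = 2 per group) had an adjusted p of 0.912 (limma) and turned to 0.99 without wild-type array 2 and to 0.20 without KO array 1. On both Pf4 and Ppbp the highest of the 4 arrays was wild-type array 2.

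Vwf, the ligand of the GPIb-IX-V complex, was read by 3 probes on chromosome 6. The brightest (125636551 to 125636610, mm9) had levels of -0.10 and -0.26 in KO, against 0.60 and 0.22 in wild type. Another probe of the same transcript (125635858 to 125635917) had levels of -2.29 and -2.38 in KO, against -1.69 and -1.60 in wild type. Both probes put both KO arrays below both wild-type arrays. The brightest probe differed by -0.58 ± 0.18 (log2 KO minus wild type, SE, n = 2 per group; 1.5-fold lower; adjusted p = 0.325, limma). The other gave -0.69 ± 0.13, with an unadjusted p of 0.00393 and an adjusted p of 0.262 in a limma fit with every probe as its own feature. The third probe (125554568 to 125554627) carries a cDNA accession in place of the RefSeq transcript and on no array was it well above background.

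Selp, the adhesion molecule that leukocytes roll on, was printed 10 times on each array with 1 probe (chromosome 1, 166079660 to 166079719, mm9), so that its error within an array could be measured. The 10 spots averaged -4.69 ± 0.23 and -4.18 ± 0.14 on the KO arrays, against -3.85 ± 0.10 and -3.62 ± 0.10 on the wild-type arrays (log2, SD over 10 spots of 1 array). The highest spot of KO array 1 (-4.43) was below the lowest spot of either wild-type array (-3.97 and -3.80), while the highest spot of KO array 2 (-3.95) just passed the lowest of wild-type array 1. Spots of 1 array share its RNA and are not replicates of a genotype. Between arrays, the log2 difference was -0.70 ± 0.23 (SE, n = 2 per group; 1.63-fold lower; adjusted p = 0.33, limma). It was -0.44 without KO array 1, and -0.26 with normexp background correction, which compresses dim signals. Its other probe (166071558 to 166071617) was on no array well above background.

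**Figure D2:**
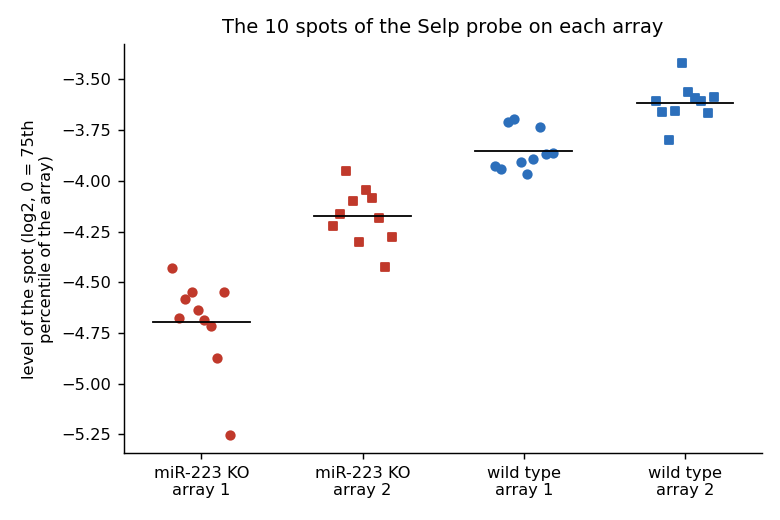
Level of each of the 10 spots of the Selp probe on each array (log2, 0 is the 75th percentile of the array), with a bar at the mean of the spots. Spots of KO array 1 average -4.69 and those of KO array 2 -4.18, against -3.85 and -3.62 on the wild-type arrays.

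Treml1, a receptor of alpha granules that binds fibrinogen, lies on chromosome 17 (probe at 48506365 to 48506424, mm9). Its level was -3.71 and -3.48 on the KO arrays, against -3.15 and -2.87 on the wild-type arrays. The groups were apart by 0.34, more than the gap within either group (0.22 in KO and 0.28 in wild type). The log2 difference was -0.59 ± 0.17 (SE, n = 2 per group; 1.5-fold lower; adjusted p = 0.308, limma). With normexp it was also -0.26.

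The subunits of the von Willebrand factor receptor did not share this direction. Gp9, which encodes glycoprotein IX (chromosome 6, 87729650 to 87729709, mm9), had levels of -2.34 and -2.20 in KO, against -2.58 and -2.38 in wild type. The KO arrays were above the wild-type arrays by less than the gap within either group, and the log2 values differed by 0.21 ± 0.14 (SE, n = 2 per group; adjusted p = 0.566, limma). Gp1bb, the beta chain of glycoprotein Ib (chromosome 16, 18621107 to 18621166, minus strand), had levels of -1.65 and -1.75 in KO, against -1.74 and -2.05 in wild type. The groups overlapped, and the log2 difference was 0.19 ± 0.16 (adjusted p = 0.639, limma). With single arrays left out it ran from 0.03 (without wild-type array 2) to 0.35 (without wild-type array 1) for Gp1bb, and from 0.11 (without wild-type array 1) to 0.31 (without wild-type array 2) for Gp9. For Gp5, glycoprotein V (chromosome 16, 30308347 to 30308406, minus strand), the scanner gave 5.82 and 2.01 in KO against 5.69 and 4.60 in wild type, all not well above background. The probe of Gp1ba, which encodes the chain that binds von Willebrand factor, was likewise on no array well above background.

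**Figure D3:**
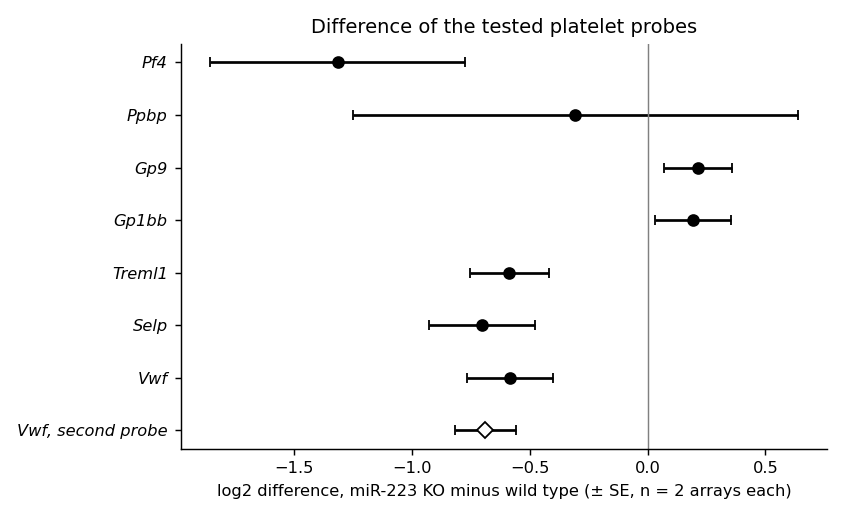
Log2 difference, miR-223 KO minus wild type, of the 8 measured platelet probes with limma's SE (n = 2 arrays per group), the other probe of Vwf as an open diamond. Pf4, Treml1, Selp and both Vwf probes lie below 0 by more than their SE, Gp9 and Gp1bb lie above 0 at 0.21 and 0.19, and the error of Ppbp spans 0.

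Pf4 and Ppbp are neighbours of other CXC chemokine genes on chromosome 5. Of 9 listed genes of that kind, 4 were measured and all were lower in KO, where 45.2% of all tested genes were lower. Cxcl1, a neutrophil attractant, had levels of -2.76 and -2.23 in KO, against -0.36 and 1.41 in wild type, which gives -3.03 ± 0.63 (log2, SE, n = 2 per group; adjusted p = 0.256, limma). Cxcl2 and Cxcl3, its close relatives, had log2 differences of -1.88 ± 1.0 and -1.87 ± 1.09, and Cxcl10, a chemokine induced by interferon, one of -0.47 ± 0.35. The groups were apart for Cxcl1 and overlapped for the other 3, where 52% of all tested genes overlapped. The wild-type arrays were far apart for Cxcl3, as for Ppbp, with Cxcl3 levels of -1.23 and -0.35 in KO, against -0.48 and 2.63 in wild type. Cxcl5, which lies in the same cluster, was well above background on 1 array and was not tested.

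By a search over all tested genes for the most similar values on the 4 arrays, each gene centred on its own mean, Ppbp lay nearest to an entry listed as U15647 and to Prg2 and Epx, at root mean square distances of 0.22, 0.23 and 0.25 (log2). Prg2 and Epx encode the major basic protein and the peroxidase of eosinophil granules. Prg2 had levels of 3.16 and 3.63 in KO, against 2.17 and 5.11 in wild type, and Epx 1.03 and 1.55 in KO, against 0.13 and 3.22 in wild type. In each of these genes, as in Ppbp, the KO arrays lay between a low wild-type array 1 and a high wild-type array 2. An eosinophil list was added after these values were seen, and 9 of its 11 genes were tested. Their summed level, in multiples of the 75th percentile, was 32.4 and 44.1 in KO, against 18.7 and 77.6 in wild type. Prg2 was the largest term on wild-type array 2. The list holds Prg2 and Epx, which were found by their likeness to Ppbp, so the sum in part repeats that choice. In Prg3, Ear1 and Ear10 of the list, too, the KO arrays lay between a low wild-type array 1 and a high wild-type array 2. Prg3 had levels of -0.89 and -0.66 in KO, against -1.96 and 1.46 in wild type. Members of the list did not all follow this pattern. Siglecf, a surface receptor of eosinophils, had levels of 0.88 and 0.94 in KO, against 0.13 and 0.14 in wild type. Alox15, a lipoxygenase, had levels of -3.67 and -4.22 in KO, against -2.997 and -2.52 in wild type. Ear6, a ribonuclease gene, was highest on KO array 2, at 3.64 against 3.27 on wild-type array 2. Ccr3, the eotaxin receptor, differed by 0.03 ± 0.13 and cleared background on just 1 wild-type array. The part of eosinophil content in the Ppbp values was not tested. Pf4 was nearest to Cpt1c (distance 0.11), Ms4a8a (0.12) and an unnamed transcript (0.13), and Selp to Rgmb (0.03), Tnfaip8l3 (0.04) and Fabp3 (0.06). With 4 arrays such likeness is a description only.

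**Figure D4:**
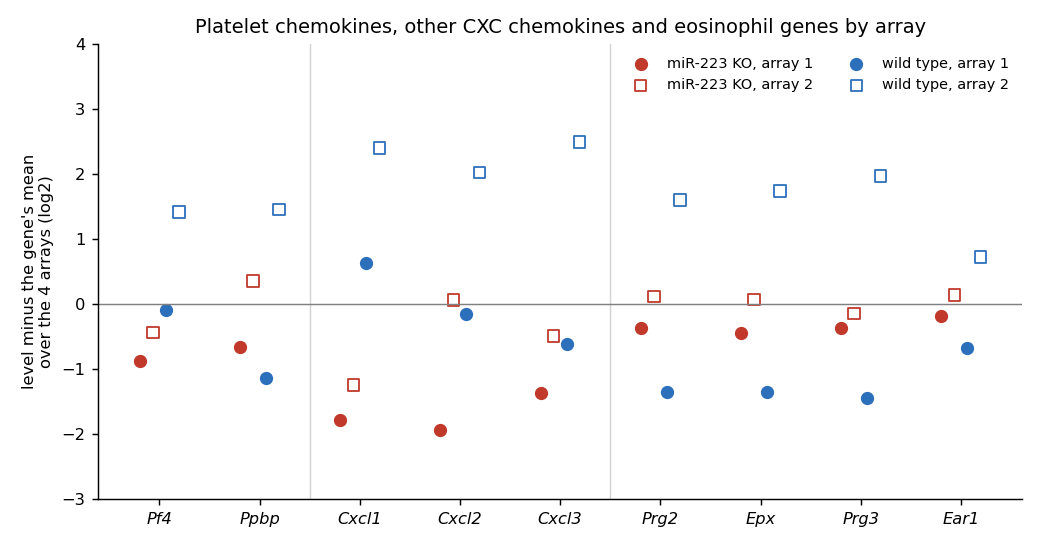
Level of each gene on each array minus its mean over the 4 arrays (log2), for Pf4 and Ppbp (left), other CXC chemokine genes (middle) and eosinophil genes (right). Wild-type array 2 is highest for every gene shown, and wild-type array 1 is lowest for Ppbp, Prg2, Epx, Prg3 and Ear1. Prg2 and Epx were found by a search for values like those of Ppbp, so their likeness to it follows from that choice. Not all genes of the eosinophil list, which was added after the Ppbp values were seen, are drawn. Among those left out, Ear6 and Siglecf were higher on a KO array, and Alox15 was lowest on a KO array.

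Other receptors of platelets went both ways, with 8 of 16 tested genes higher, 8 lower and a median log2 difference of 0.01. Itga2b and Itgb3 encode the 2 chains of the platelet fibrinogen receptor. Itga2b, the chain that marks the megakaryocyte lineage, had levels of -2.74 and -3.81 in KO, against -1.47 and -1.81 in wild type. Itgb3, a chain that macrophages and other cells also use, had levels of 3.61 and 3.56 in KO, against 2.22 and 2.43 in wild type. Their log2 differences were thus of opposite sign, at -1.64 ± 0.39 for Itga2b and 1.26 ± 0.14 for Itgb3 (SE, n = 2 per group; adjusted p = 0.272 and 0.239, limma), although another probe of Itgb3 gave 0.39. Pear1, a receptor of platelet contact signalling, was at -1.39 ± 0.19 and P2ry12, an ADP receptor, at -1.20 ± 0.32 (adjusted p = 0.239 and 0.291, limma). Both were dim, with KO levels of -5.74 and -6.11 for Pear1 and of -4.99 and -5.35 for P2ry12. Clec1b, a platelet receptor for podoplanin, had a log2 difference of 0.10 ± 0.28, and Gp6, the collagen receptor, one of 0.20 ± 0.23, with Gp6 clearing background on just 1 wild-type array.

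Among granule, enzyme and cytoskeleton genes of platelets, 16 of 25 tested genes were lower and 9 higher, with a median of -0.05. Pdgfb and Pdgfa, which encode growth factors of alpha granules, were at -0.79 ± 0.17 and -0.64 ± 0.22, and other probes gave -1.26 for Pdgfb and -0.60 for Pdgfa. Mmrn1, which encodes the factor V carrier multimerin, was at 0.98 ± 0.41 and F13a1, coagulation factor XIII chain A, which macrophages also make, at -0.99 ± 0.45. These 4 genes had the smallest p of the list (limma), and the groups were apart for all of them. Of the 25 tested genes, 5 had both KO arrays below both wild-type arrays (20.1% of all tested genes) and 2 above (28%). In this list 2 lower genes, Pdgfb and Pdgfa, and 0 higher had an unadjusted p under 0.05 (limma). Of all tested genes 5.52% were lower and 8.03% higher at that p. None of the list passed over all genes. Mmrn1 cleared background on 1 of the wild-type arrays. Pdgfb was dim, with levels of -5.41 and -5.64 in KO, against -4.88 and -4.59 in wild type. Serglycin (Srgn), the granule proteoglycan, was at -0.24 ± 0.15, with Thbs1, thrombospondin, at 0.10 ± 0.21.

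Of 16 transcription factors of megakaryocytes, all were measured, 11 were higher and 5 lower, with a median of 0.12. Meis1, which is active in progenitors and megakaryocytes, was at -0.97 ± 0.17, against 0.59 ± 0.15 for Hhex and 0.36 ± 0.12 for Fli1, an ETS factor of this lineage (another Fli1 probe -0.03). Tal1 was at 0.38 ± 0.16. Meis1 was dim, with levels of -5.93 and -6.17 in KO, against -5.22 and -4.95 in wild type. Gata1, which drives megakaryocyte, erythroid, eosinophil and mast cell genes, had levels of -4.33 and -5.64 in KO, against -4.01 and -3.81 in wild type (-1.07 ± 0.46). Gfi1b, a transcriptional repressor active in megakaryocyte and erythroid cells, was at -0.78 ± 0.39. None of the 16 passed over all genes (limma). At an unadjusted p of 0.05 (limma), 2 were higher and 1 lower, against 8.03% higher and 5.52% lower of all tested genes.

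Of 9 genes for ligands, receptors and a cleaving enzyme of the platelet proteins, 7 were tested, 3 higher and 4 lower, and Gp1ba and Adamts13, the von Willebrand factor protease, were on no array well above background. Selplg, the P-selectin ligand, had levels of 4.72 and 4.98 in KO, against 4.56 and 4.71 in wild type. Cxcr2, the receptor for the Ppbp peptide, was at 1.42 and 1.86 in KO, against 0.20 and 1.35 in wild type. Their log2 differences were 0.22 ± 0.16 and 0.87 ± 0.43 (SE, n = 2 per group; adjusted p = 0.586 and 0.457, limma). Cxcr3, a receptor for the Pf4 product in other settings, was at 0.48 ± 0.24 and the proteoglycan gene Sdc4 at -0.64 ± 0.26. Beside Selp on chromosome 1, F5, coagulation factor V, was at 0.20 ± 0.16, and Sele, the gene of E-selectin, was on no array well above background.

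Markers of other cells that the cultures could hold were set beside these values. Over all tested genes, 45.2% were lower in KO and 20.1% had both KO arrays below both wild-type arrays. Of 16 macrophage and monocyte markers, all measured, 13 were lower in KO, with a median of -1.01 (-0.53 for KO array 1 and -1.18 for KO array 2) and both KO arrays below both wild-type arrays for 10. Mertk was at -2.04 ± 0.21, Vcan at -0.95 ± 0.13, Fn1 at -1.91 ± 0.27 and Mrc1 at -1.17 ± 0.20, but Csf1r at -0.17 ± 0.20, Cd68 at -0.09 ± 0.24 and Adgre1 at 0.75 ± 0.24. The summed level of this list was 173 and 193 in KO, against 144 and 154 in wild type. Most of this sum came from Ly6c1. The higher genes were Adgre1, Maf (0.40 ± 0.22) and Ly6c1, which had levels of 7.08 and 7.25 in KO, against 6.69 and 6.70 in wild type. Mast cell and basophil markers were lower for 8 of 9 tested genes (median -1.35, but -0.51 for KO array 1 and -2.20 for KO array 2, each against the wild-type mean), with summed levels of 46.4 and 24.5 in KO, against 64.8 and 72.6 in wild type. In that list KO array 2 was lowest for Cpa3, Mcpt8, Fcer1a, Gata2, Ms4a2, Prss34 and Cd200r3, with log2 differences from -0.96 to -1.92. KO array 2 was not lowest for Hdc (-0.45 ± 0.20), nor for Kit (0.03 ± 0.21), which was not lower in KO. None of the genes of either list passed over all genes (limma), and their part in the values of Pf4, Vwf, Selp and Treml1 was not tested.

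Endothelial cells also make Vwf and P-selectin. Of 16 endothelial markers, Cdh5, Emcn, Sele, Robo4, Sox18 and Cldn5 were well above background on no array and Tek on 1. The 9 tested genes had a median of 0.16, with Kdr at -0.88 ± 0.27, Erg at 0.42 ± 0.13, Mmrn2 at -0.98 ± 0.47 and Icam2 at 0.22 ± 0.12, and their summed level was 18.8 and 18.04 in KO, against 16.4 and 15.6 in wild type, most of it from Icam2, which leukocytes also express. Of the erythroid markers on the array, 7 of 15 were well above background on no array, Klf1 and Alas2 among them. The 7 tested had a median of 0.33, with Car2 at 0.63 ± 0.13, Tfr2 at -1.64 ± 0.45, Epor at -0.36 ± 0.15 and Hba-a1 at 0.53 ± 0.22, and a summed level of 3.76 and 3.91 in KO, against 2.59 and 2.70 in wild type, most of it from Car2. Epor and Hba-a1 cleared background on 1 of the wild-type arrays, so that their differences rest on a dim value on the other. Stem and progenitor markers were lower for 6 of 7 tested genes (median -0.36), with Flt3 at -0.995 ± 0.29 and Hoxa9 at -0.58 ± 0.23, against 0.89 ± 0.14 for Hlf and -0.36 ± 0.34 for Cd34. Their summed level was 15.1 and 12.6 in KO, against 14.8 and 13.8 in wild type, most of it from Myb. Granulocyte genes had a median of 0.15, with 11 of 14 higher, Lcn2 at 0.81 ± 0.24 and Ngp at 0.50 ± 0.17. The lower ones were Mpo at -0.43 ± 0.24, Fcnb at -0.35 ± 0.16 and Camp at -0.18 ± 0.19.

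**Figure D5:**
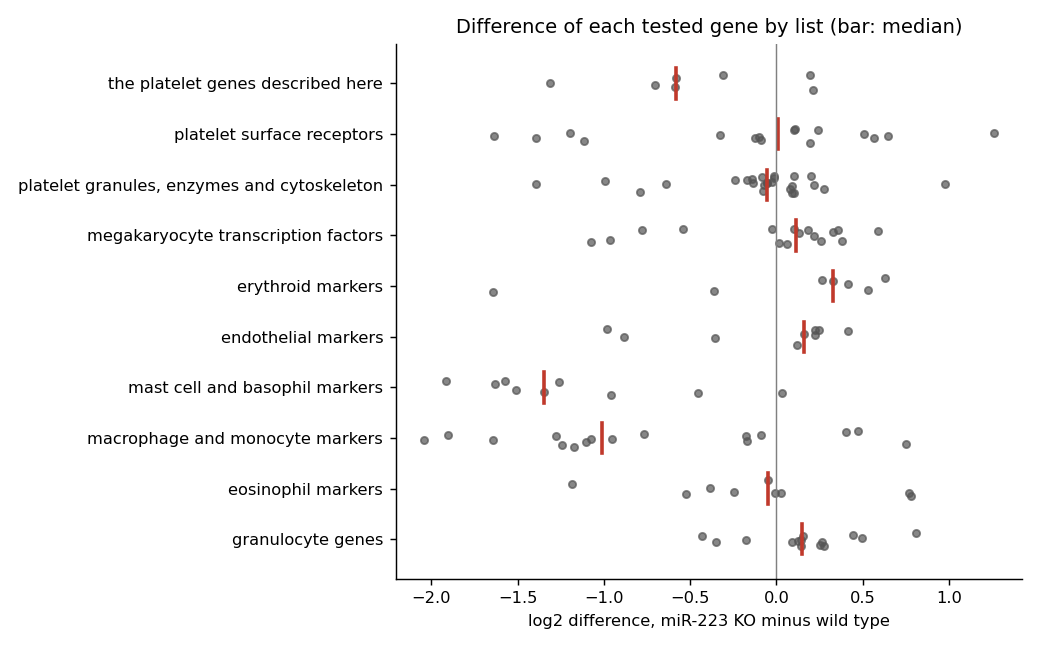
Log2 difference, miR-223 KO minus wild type, of every tested gene of each list, with a bar at the median of the list. The platelet genes described here have a median of -0.58, against 0.01 for the other platelet receptors, -1.35 for the mast cell (-0.51 and -2.20 for the single KO arrays) and -1.01 for the macrophage markers.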

How the data were processed

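Spots were scanned and quantified in Agilent Feature Extraction 10.5.1.1 (array design 014868, build mm9), whose processed intensity, per the file headers, had spatial and multiplicative detrending switched on. The authors' deposited log2 values match this intensity on the log2 scale after a shift of each array by 1 constant (99.8% of probes within 0.01; medians 5.03) and served as an alternative; how they were made is not stated.

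Control and outlier spots were left out, log2 values of a probe's spots were averaged, and the 75th percentile of each array (493 to 514 in KO and 486 to 586 in wild type) was subtracted. Probes were named through RefSeq (GRCm38.p6) accessions for 26888 of 41174 probes, through another accession for 98 and otherwise by the file's name, and each gene took its brightest probe. The 16781 tested genes cleared background on both KO or both wild-type arrays, and 4 with a missing value were left out. Genotypes were compared with limma 3.58.1 (lmFit, eBayes, two-sided) in R 4.3.3, with Benjamini-Hochberg adjustment at 0.05. The fit was tested on simulated data. Precision is limited by having 4 arrays, with a median SE of 0.157. All arrays share 1 slide and scan time.

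Members and lists were chosen with earlier results of these data known. Named were all members, up to 4 genes of each list by smallest p, the first 3 markers of lists of other cell types, and 3 nearest profiles for members with a range of at least 1; other genes named outside this rule (Clec1b, Gp6, Thbs1, Srgn, Gata1, Gfi1b, Ly6c1, Maf, Myb, Ear6, Ccr3 and dim markers among them) were chosen after their values were seen. Alternatives covered scaling, background correction, filters, probe choice, variance model, pairing and left-out arrays. The eosinophil list was added after the Ppbp values were seen. Some listed genes are not reported here.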

Additional observations from a re-analysis of the deposited data

How the results depend on the processing

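Over 15 alternatives per gene, Pf4, Selp, Treml1 and Vwf stayed lower and Gp9 and Gp1bb higher in KO, with 0 of these genes past the threshold (smallest adjusted p of 0.115 for Pf4, 0.262 for Selp, 0.197 for Treml1 and 0.224 for Vwf, limma). Ppbp ran from -1.61 to 0.99 with arrays left out: it was 0.99 without wild type replicate 2 and 0.20 without miR-223 KO replicate 1. The median of the 7 genes was -0.26 with normexp background correction, which adds 50 to every signal, and -0.72 to -0.44 with arrays left out, where 4 to 5 genes were lower. Dim genes are the limit: Selp, at 19.9 to 40.6 on the scanner's scale, gave -0.26 with normexp. Pear1, P2ry12, Pdgfb, Meis1, Kdr and Flt3 were dimmer than Selp on both KO arrays. Over all genes, 4 passed an adjusted p of 0.05 with spike-in scaling and 3 with every probe as a feature; the cause was not tested. With arrays left out the count was 0 to 0. Replicate numbers are shared by the genotypes, but the labels state no pairing. The deviations of same-numbered arrays correlated at 0.174 across genes over 2 pairs. With the replicate block the count was 0, the median of the 7 genes was -0.58 and Pf4 had an adjusted p of 0.273 (limma).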
